A study of Homo sapiens with 6 samples.

Results

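The genes described here are 10 that encode the NF-kB transcription factor subunits, the proteins that hold them back and feedback genes they switch on: NFKB1, NFKB2, REL, RELA, RELB, NFKBIA, NFKBIE, NFKBIZ, TNFAIP3 and BIRC3. They were chosen by name, as a list, with earlier results of these data known, so shares over all genes below describe and do not test them. Each of the 10 symbols matched 1 of the 60483 Ensembl gene identifiers in the count files. All 10 had enough counts to be tested. Expression was measured by sequencing the total RNA of HepG2, a human line derived from a liver tumour, grown in RPMI-1640 with fetal bovine serum. Cells were transfected with an siRNA against FTO, a demethylase that removes N6-methyladenosine from RNA (3 libraries), or with a control siRNA (3 libraries), so both groups went through transfection. The series sought genes that FTO regulates in liver cancer, and the sources used here give neither the sequence and dose of the siRNA nor the hours between transfection and harvest.

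NF-kB factors are dimers of proteins with a shared Rel homology domain. In resting cells, inhibitors of the IkB family hold most dimers in the cytoplasm. Signals from receptors for TNF, interleukin 1 or microbial products activate the IKK kinases, IkB is phosphorylated and degraded, and the freed dimers, mainly of RELA and the processed product of NFKB1, enter the nucleus. A slower branch processes the NFKB2 precursor and releases dimers with RELB. NF-kB switches on several of its own inhibitors and subunits, which makes the system self-limiting, and in liver cells it drives acute phase and survival genes.

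Promoter sequence is shown for 6 of the genes because the ability of NF-kB to act on its own genes rests on kB sites. RefSeq promoter windows of 300 bases (250 before and 50 after the annotated start, build GRCh38.p14) were matched by symbol for 8 of the 10 genes, with 13 windows in all. RELB and NFKBIE were not matched. Both strands were searched for the 10-base kB consensus, and capitals below mark each match, with all sequences 5′ to 3′ on the strand of the gene. Each stretch stops before the first base that GENCODE 29 places in an exon of the gene, or at the end of the last match where that lies further, so that 26 exon bases are shown for TNFAIP3 and 1 for NFKB2. The stretches are chr14:35404750-35404999 on the minus strand for NFKBIA, chr6:137867009-137867213 on the plus strand for TNFAIP3, chr11:102317234-102317449 on the plus strand for BIRC3, chr10:102395455-102395693 on the plus strand for the third annotated start of NFKB2, chr4:102501109-102501328 on the plus strand for NFKB1 and chr11:65663858-65664107 on the minus strand for RELA.
NFKBIA: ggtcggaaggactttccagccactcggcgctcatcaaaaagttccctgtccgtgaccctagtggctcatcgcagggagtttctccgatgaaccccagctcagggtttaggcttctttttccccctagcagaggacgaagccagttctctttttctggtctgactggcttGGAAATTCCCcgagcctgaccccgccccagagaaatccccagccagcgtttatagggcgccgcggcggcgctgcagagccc
TNFAIP3: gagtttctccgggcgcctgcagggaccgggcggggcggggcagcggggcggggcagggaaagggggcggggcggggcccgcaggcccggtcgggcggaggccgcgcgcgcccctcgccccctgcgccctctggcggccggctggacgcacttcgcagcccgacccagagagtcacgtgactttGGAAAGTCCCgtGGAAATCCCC
BIRC3: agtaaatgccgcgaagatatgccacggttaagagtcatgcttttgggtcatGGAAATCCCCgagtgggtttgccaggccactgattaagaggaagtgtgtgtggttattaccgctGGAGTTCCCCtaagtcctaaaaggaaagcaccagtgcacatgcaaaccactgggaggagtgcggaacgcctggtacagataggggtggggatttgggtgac
NFKB2: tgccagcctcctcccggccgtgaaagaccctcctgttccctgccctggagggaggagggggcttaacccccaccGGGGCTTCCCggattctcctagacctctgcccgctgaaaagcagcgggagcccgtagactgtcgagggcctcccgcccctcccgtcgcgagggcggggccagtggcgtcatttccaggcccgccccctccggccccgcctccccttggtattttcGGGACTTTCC
NFKB1: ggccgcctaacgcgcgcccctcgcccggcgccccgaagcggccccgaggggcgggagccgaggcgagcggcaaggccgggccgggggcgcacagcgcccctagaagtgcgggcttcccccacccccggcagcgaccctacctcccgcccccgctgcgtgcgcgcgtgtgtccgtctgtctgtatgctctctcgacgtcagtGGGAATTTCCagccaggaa
RELA: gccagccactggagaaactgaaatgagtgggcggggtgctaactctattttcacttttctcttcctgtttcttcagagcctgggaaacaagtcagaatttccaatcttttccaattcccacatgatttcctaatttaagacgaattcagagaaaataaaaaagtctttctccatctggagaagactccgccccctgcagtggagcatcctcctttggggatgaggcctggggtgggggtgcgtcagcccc

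A match was found in at least 1 window of 7 of the 8 genes, where 7.09% of the 27305 genes in the RefSeq table had one. Over windows, 9 of 13 held a match, against 5.91% of all 35116 windows. The window of NFKBIA held GGAAATTCCC, which starts 81 bases before the annotated start. That of TNFAIP3 held a pair in close succession, GGAAAGTCCC at 67 bases and GGAAATCCCC at 55 bases before the start, and that of BIRC3 held GGAAATCCCC at 199 bases and GGAGTTCCCC at 135 bases before it. NFKB2 had matches at 2 of its 3 annotated starts, among them GGGACTTTCC at 21 bases before the start in the stretch shown. NFKB1 had GGGAATTTCC at 49 bases before its first start. REL had overlapping matches from GGGAAATTCC at 47 bases before its start, and NFKBIZ had 1 match at each of its 2 starts. Neither window of RELA held one. A match is a description of the letters, and no binding was measured.

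Total counts lay between 16407912 and 18390953 in the FTO siRNA libraries and between 15713279 and 16739978 in the control siRNA libraries. At that depth, 3 counts in a library correspond to 0.163 to 0.191 CPM (counts scaled to a common library size), a floor that covers counting error only. FTO itself had 11.2, 14.4 and 5.20 CPM in FTO siRNA libraries 1, 2 and 3, against 40.7, 37.9 and 38.7 CPM in control siRNA libraries 1, 2 and 3, so the mean in FTO siRNA libraries was 26.3% of the control mean. All 10 hepatocyte markers were counted in every library, and none passed the test. AFP averaged 9175 CPM in FTO siRNA libraries and 11774 CPM in control libraries. APOB averaged 2611 CPM in FTO siRNA libraries and 6877 CPM in control libraries (adjusted p = 0.0650). The log2 fold changes of all 10 were below 0, with a median of -0.30, beside 0.04 over all genes tested. In 2 of the 10 every FTO siRNA library lay below every control library, near the 17.4% of all genes tested that did so. FTO siRNA 3 stood apart from the other libraries of its group on the second principal component, which held 25.7% of the variance. Whether replicate libraries stem from separate cultures is not in the labels, so the p-values measure only the spread between these samples, possibly a technical one. In bulk RNA, a change in the number of cells that express a gene and a change in RNA per cell cannot be told apart.

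After FTO siRNA, 6 of the 10 genes rose and none fell at a Benjamini-Hochberg adjusted p under 0.05 over all 15025 genes tested (edgeR quasi-likelihood test). Over all genes tested, 7.53% were called higher and 3.83% lower. The 6 were the subunit genes NFKB2 and RELB, the inhibitor genes NFKBIA and NFKBIE, and the feedback genes TNFAIP3 and BIRC3, with fold changes from 1.73 for NFKBIE to 3.08 for BIRC3. RELA and NFKB1, the main subunits of the classical branch, did not pass, and neither did REL and NFKBIZ. In 8 of the 10 genes every FTO siRNA library lay above every control library, where 19.2% of all genes tested did so. The median log2 fold change of the 10 genes was 0.86, beside 0.04 over all genes tested.

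**Figure D1:**
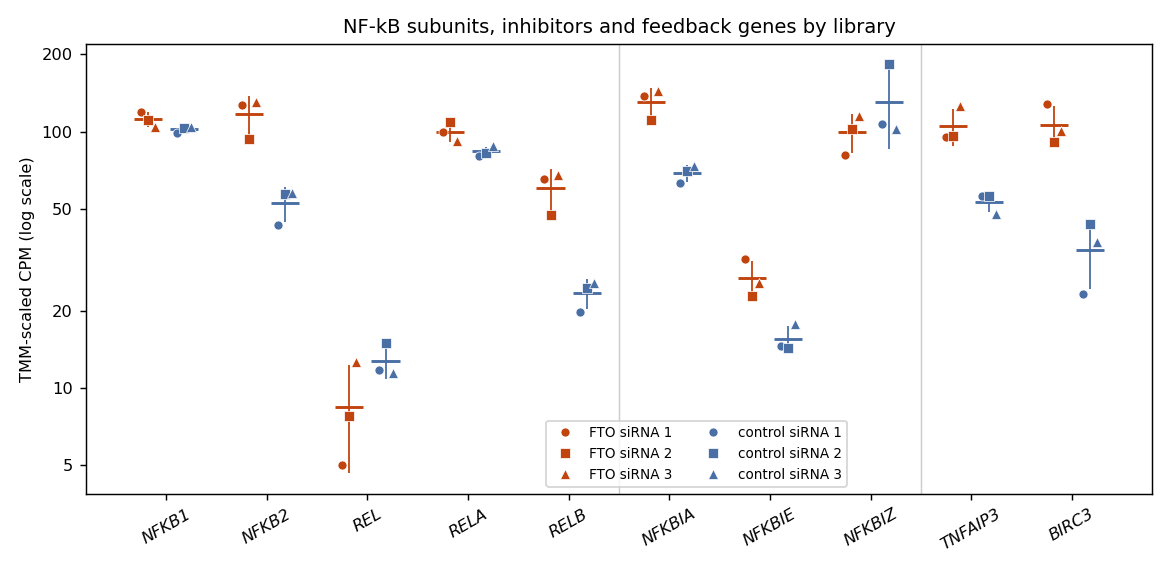
TMM-scaled CPM on a log axis for each of the 10 genes in the 3 FTO siRNA libraries (orange) and the 3 control siRNA libraries (blue); horizontal lines are group means and vertical lines 1 SD. The groups are apart for NFKB2, RELB, NFKBIA, NFKBIE, TNFAIP3 and BIRC3, nearly touch for NFKB1 and overlap for REL and NFKBIZ.

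Among the subunit genes, RELB (ENSG00000104856.12, chromosome 19) encodes the partner of the processed NFKB2 product in the alternative branch. It had 65.4, 47.4 and 67.5 CPM in FTO siRNA libraries 1, 2 and 3, against 19.8, 24.4 and 25.7 CPM in control libraries 1, 2 and 3. The lowest FTO siRNA library was thus well above the highest control. RELB rose by 1.37 ± 0.19 (SE) on the log2 scale, a 2.58-fold change (adjusted p = 0.00488), and passed the threshold with any 1 library left out.

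NFKB2 (ENSG00000077150.16, chromosome 10), the gene of the precursor p100, had 127, 93.3 and 129.9 CPM in FTO siRNA libraries 1, 2 and 3, against 43.1, 57.2 and 57.4 CPM in control libraries 1, 2 and 3. The groups did not overlap, and FTO siRNA 2 was again the lowest of its group. NFKB2 rose 2.22-fold (log2 1.15 ± 0.19 SE, adjusted p = 0.00873). Without control 1, the lowest control, its adjusted p was 0.0539.

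RELA (ENSG00000173039.17, chromosome 11) encodes p65, which carries the transactivation domain of the classical dimer. It had 99.4, 108.6 and 91.4 CPM in FTO siRNA libraries 1, 2 and 3, against 80.5, 82.5 and 87.7 CPM in control libraries 1, 2 and 3. All FTO siRNA values lay above the controls by a small margin. The fold change was 1.19 (95% interval 0.967 to 1.47, adjusted p = 0.251), an interval that leaves out a doubling.

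NFKB1 (ENSG00000109320.10, chromosome 4), the gene of the precursor p105, had 119, 111 and 104.3 CPM in FTO siRNA libraries 1, 2 and 3, against 99.1, 103 and 104.2 CPM in control libraries 1, 2 and 3. FTO siRNA 3 and control 3 were at almost the same level. The fold change was 1.09 (95% interval 0.890 to 1.33, adjusted p = 0.573).

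REL (ENSG00000162924.12, chromosome 2) encodes c-Rel, a subunit best known from lymphocytes, and was the lowest of the 10 genes. It had 5.01, 7.77 and 12.5 CPM in FTO siRNA libraries 1, 2 and 3, from 81, 126 and 246 counts, against 11.8, 14.9 and 11.4 CPM in control libraries 1, 2 and 3. The groups overlapped because FTO siRNA 3 lay within the controls, while FTO siRNA 1 and 2 lay below them all. The log2 fold change was -0.58 ± 0.31 (SE) and did not pass (adjusted p = 0.266). Without FTO siRNA 3 it was -1.02 and passed (adjusted p = 0.0103), in a fit that called 14.1% of all genes tested lower. In GENCODE 29, 43.3% of the exon bases of REL also belong to AC010733.2, a noncoding gene on the same strand that was listed at 0 in every library, and the sources used here do not say how reads in shared bases were counted or whether the annotation used had the same exons.

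Inhibitor genes rose at NFKBIA and NFKBIE. NFKBIA (ENSG00000100906.9, chromosome 14) encodes IkB alpha, the inhibitor that NF-kB itself replaces after a signal. It had 138, 111 and 143 CPM in FTO siRNA libraries 1, 2 and 3, against 62.9, 70.1 and 73.03 CPM in control libraries 1, 2 and 3. Every FTO siRNA library exceeded every control. NFKBIA rose 1.90-fold (log2 0.93 ± 0.15 SE, adjusted p = 0.00919), and its adjusted p was 0.0663 without control 1 and 0.0584 without control 2.

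NFKBIE (ENSG00000146232.13, chromosome 6) encodes IkB epsilon, a relative that is also replaced after a signal but more slowly. It had 31.7, 22.9 and 25.7 CPM in FTO siRNA libraries 1, 2 and 3, against 14.6, 14.2 and 17.7 CPM in control libraries 1, 2 and 3. The groups were apart, with the smallest distance among the genes that passed. NFKBIE rose 1.73-fold (log2 0.79 ± 0.18 SE, adjusted p = 0.0303). The call was the least stable of the 6: the adjusted p was 0.147 without control 1, 0.144 without control 2, 0.0663 without control 3 and 0.0736 without FTO siRNA 1.

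NFKBIZ (ENSG00000144802.10, chromosome 3) encodes IkB zeta, a nuclear member of the family that acts on a subset of target genes. It had 81.03, 102 and 115 CPM in FTO siRNA libraries 1, 2 and 3, against 107, 183 and 102 CPM in control libraries 1, 2 and 3. The groups overlapped, and control 2 was far above the other controls. The log2 fold change was -0.39 ± 0.25 (SE, adjusted p = 0.337), and -0.08 without control 2.

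Both feedback genes rose. TNFAIP3 (ENSG00000118503.13, chromosome 6) encodes A20, a ubiquitin-editing enzyme that shuts off signalling from TNF and interleukin 1 receptors. It had 94.9, 95.7 and 126 CPM in FTO siRNA libraries 1, 2 and 3, against 56.2, 55.9 and 47.7 CPM in control libraries 1, 2 and 3. The lowest FTO siRNA library stood clear of the highest control. TNFAIP3 rose 1.98-fold (log2 0.99 ± 0.16 SE, adjusted p = 0.00932), with adjusted p-values of 0.0530 without control 1 and 0.0539 without control 2. An antisense gene, AL357060.1, shares 95 exon bases with TNFAIP3 in GENCODE 29, and without strand information reads there cannot be told apart.

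BIRC3 (ENSG00000023445.12, chromosome 11) encodes cIAP2, a ubiquitin ligase in the TNF receptor complex that restrains the alternative branch and protects against cell death. It had 127, 90.9 and 100.5 CPM in FTO siRNA libraries 1, 2 and 3, against 23.2, 43.4 and 36.998 CPM in control libraries 1, 2 and 3. The groups were far apart despite a wide spread among the controls. BIRC3 rose 3.08-fold (log2 1.62 ± 0.24 SE, adjusted p = 0.00663), the highest fold change of the 10, and passed with any 1 library left out. Its relative BIRC2, the gene of cIAP1, had a fold change of 1.35 and did not pass (adjusted p = 0.122).

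**Figure D2:**
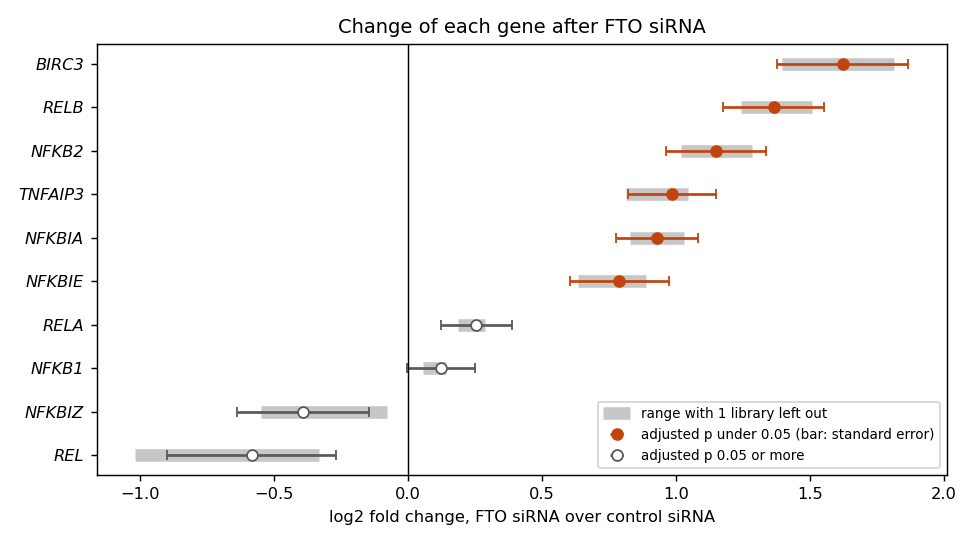
Log2 fold change of each gene, FTO siRNA over control siRNA, with its standard error; filled points have an adjusted p under 0.05, and grey bands span the values with 1 library left out. The 6 genes that passed range from 0.79 to 1.62, and the bands of the other 4 lie at or below 0.30.

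Without control 1, 2 of the 10 genes were called higher (RELB and BIRC3), and without control 2, 3 were (RELB, BIRC3 and NFKB2). In these fits 1.84% of all genes tested were called higher. The direction of all 10 fold changes was the same in every fit with 1 library left out. Of the 6 genes that passed, 5 had their lowest FTO siRNA value in FTO siRNA 2, the library with the most remaining FTO at 36.9% of the control mean, and 4 had their highest in FTO siRNA 3, with 13.3% remaining. Scores on the first principal component ran the same way, from 28.6 in FTO siRNA 2 over 44.2 in FTO siRNA 1 to 56.1 in FTO siRNA 3. This library order was thus not shown to be particular to these genes, and its share among all genes was not counted. With 3 libraries in the group, no relation between FTO level and these genes can be tested.

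Some markers of other cell types also rose after FTO siRNA. Of 14 immune cell markers 10 were tested and 7 rose, beside 7.53% of all genes tested. Of these 7, PTPRC, CD3D, CD2, NKG7, ITGAM and TYROBP had 22 or fewer counts summed over the control libraries. They entered the test through their counts in FTO siRNA libraries, so a rise was nearly the only outcome open to them. The sum over the 14 was 83.0 to 116 CPM in FTO siRNA libraries and 52.8 to 103 CPM in control libraries. LYZ, which had a mean of 71.5 CPM in FTO siRNA libraries and 72.7 CPM in control libraries, made up most of that sum. Without it, a choice made after its values were seen, the sum was 23.3 to 33.0 CPM in FTO siRNA libraries and 5.19 to 6.15 CPM in control libraries, with CD74 at a mean of 12.1 CPM in FTO siRNA libraries and 2.91 CPM in control libraries. MS4A1 and TYROBP were at 0 in every control library. In FTO siRNA libraries 1, 2 and 3, MS4A1 had 1, 5 and 2 counts, too few to test, and TYROBP 32, 29 and 25. The constant genes of antibodies and T cell receptors, 20 in all, had 299, 346 and 336 counts in FTO siRNA libraries 1, 2 and 3, against 0, 0 and 2 in control libraries 1, 2 and 3, with IGKC at 291 counts over the FTO siRNA libraries and IGLC2 at 176. Of 9 fibroblast markers, 3 of the 6 tested rose, beside the same 7.53% of all genes tested. The sum over the 9 was 248 to 599.7 CPM in FTO siRNA libraries and 99.6 to 189.5 CPM in control libraries. TAGLN had a mean of 279 CPM in FTO siRNA libraries and 60.2 CPM in control libraries with overlapping groups, and LUM did not pass. By library, TAGLN had 463, 283 and 89.9 CPM in FTO siRNA libraries 1, 2 and 3, against 34.3, 55.2 and 91.1 CPM in control libraries 1, 2 and 3. It made up most of the sum in FTO siRNA libraries 1 and 2. DCN, THY1 and ACTA2 had too few counts to test and were at 0 in every control library. In FTO siRNA libraries 1, 2 and 3, DCN had 6, 0 and 2 counts, THY1 3, 0 and 3, and ACTA2 14, 6 and 5. Of 4 endothelial markers, PECAM1 alone was tested and did not pass (adjusted p = 0.161), and CDH5 had 3, 2 and 46 counts in FTO siRNA libraries 1, 2 and 3, against 2, 1 and 1 in control libraries 1, 2 and 3, so that FTO siRNA 3 alone stood apart. Immune cells and fibroblasts also express genes of the NF-kB system, and the part of such RNA in the results was not tested.

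Ratios between counts of a pair of genes in the same library need no scaling between libraries. The ratio of RELB to RELA was 0.658, 0.437 and 0.738 in FTO siRNA libraries 1, 2 and 3, against 0.246, 0.296 and 0.293 in control libraries 1, 2 and 3. All FTO siRNA ratios were higher, by 1.10 on the log2 scale. The ratio of NFKB2 to NFKB1 was 1.06, 0.843 and 1.25 in FTO siRNA libraries 1, 2 and 3, against 0.435, 0.553 and 0.551 in control libraries 1, 2 and 3, a difference of 1.03 on the log2 scale without overlap. NFKB2 thus had more counts than NFKB1 in 2 of the 3 FTO siRNA libraries and in no control library. These counts are not corrected for transcript length, so they do not order the genes by level. The ratio of the inhibitor NFKBIA to RELA was 1.39, 1.02 and 1.57 in FTO siRNA libraries 1, 2 and 3, against 0.782, 0.849 and 0.832 in control libraries 1, 2 and 3, a difference of 0.67 on the log2 scale. The exact two-sided permutation test gave p = 0.1 for each of these 3 ratios, the smallest value that 3 against 3 libraries allow, and p = 0.1 after adjustment over the 3.

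**Figure D3:**
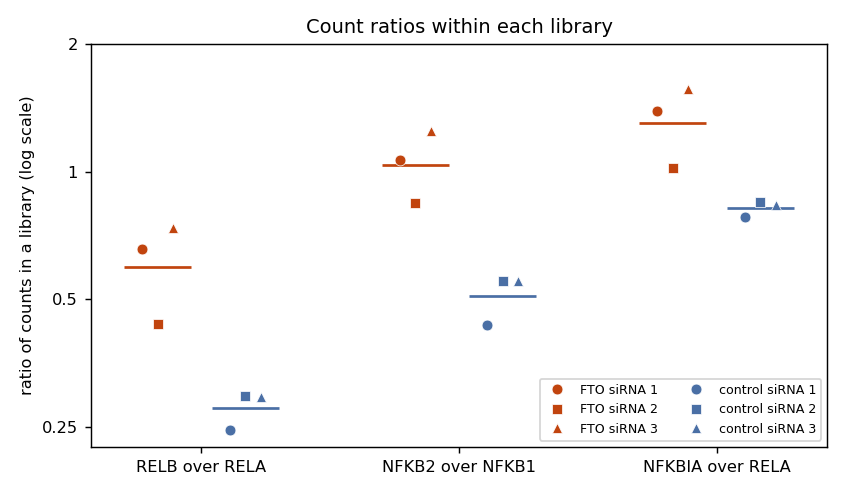
Ratio of counts within each library, on a log axis, for RELB over RELA, NFKB2 over NFKB1 and NFKBIA over RELA; points are libraries and lines geometric means of the 3 FTO siRNA (orange) or 3 control siRNA (blue) libraries. For each ratio the 3 FTO siRNA libraries lie above the 3 controls.

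Levels were compared between genes as CPM per kilobase of the longest annotated transcript. NFKBIA was the highest of the 10 at 83.9 ± 11.3 in FTO siRNA libraries and 44.1 ± 3.34 in control libraries (CPM per kb, SD, n = 3 each), and REL the lowest at 0.750 ± 0.339 in FTO siRNA libraries and 1.13 ± 0.169 in control libraries. In FTO siRNA libraries the order after NFKBIA was NFKB2, RELA, NFKB1, RELB, NFKBIZ, TNFAIP3, BIRC3, NFKBIE and REL. There only NFKBIA from NFKB2, BIRC3 from NFKBIE, and NFKBIE from REL were neighbours whose library values did not overlap. In control libraries the order was NFKBIA, NFKBIZ, RELA, NFKB1, NFKB2, TNFAIP3, RELB, BIRC3, NFKBIE and REL. NFKBIA and NFKBIZ overlapped there, as did NFKBIZ and RELA, RELA and NFKB1, TNFAIP3 and RELB, and BIRC3 and NFKBIE. The other neighbours were apart. The lengths are those of GENCODE 29, which may not be the annotation that was counted. If reads in the exon bases that REL shares with AC010733.2 were left out, its level per kilobase is understated.

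The sum of the 5 subunit genes on this per-length scale was 127, 109.9 and 123 CPM per kb in FTO siRNA libraries 1, 2 and 3, against 71.8, 79.98 and 82.1 CPM per kb in control libraries 1, 2 and 3. RELB and NFKB2 together held 51.9%, 43.7% and 54.9% of the sum in FTO siRNA libraries 1, 2 and 3, against 29.6%, 34.3% and 34.1% in control libraries 1, 2 and 3. Each share was higher in the FTO siRNA libraries. RELA held 26.4% ± 4.10 in FTO siRNA libraries and 33.7% ± 1.40 in control libraries (SD, n = 3 each). NFKB1 held 22.8% ± 1.95 in FTO siRNA libraries and 32.2% ± 1.41 in control libraries (SD, n = 3 each). REL held under 2% of the sum in all 6, with the same limit from shared exon bases.

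**Figure D4:**
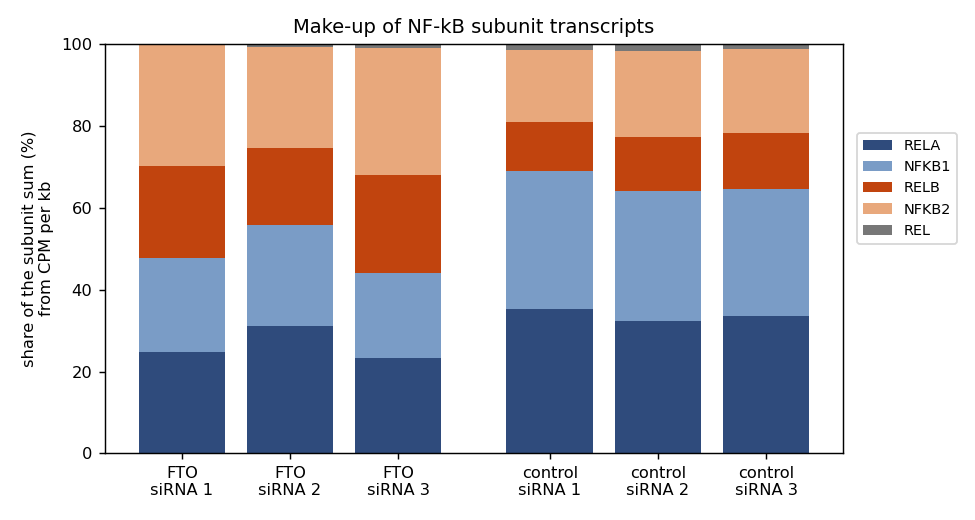
Share of each subunit gene in the sum of the 5 subunit genes, in percent of CPM per kb of the longest transcript, for each FTO siRNA and control siRNA library. RELB and NFKB2 together take 43.7% to 54.9% of the sum in FTO siRNA libraries and 29.6% to 34.3% in control libraries.

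The rest of the pathway was described with 7 lists of other genes, also chosen with earlier results of these data known. Of their genes, 89 had enough counts to test. Of these 89, 31 rose and 1 fell, beside 7.53% and 3.83% of all genes tested, and the median log2 fold change was 0.56. Among the 31 were CD40, CCL2, CCL5 and IL6, which entered the test only through their counts in FTO siRNA libraries. The number that rose was 10 without control 1, 12 without control 2, 13 without control 3 and 17 without FTO siRNA 1, in fits that called 1.84%, 1.84%, 3.46% and 4.86% of all genes tested higher.

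Among 4 tested ligands 1 rose, beside 7.53% of all genes tested. This was TNF, the cytokine that starts the classical branch. It had 9.22, 7.09 and 10.6 CPM in FTO siRNA libraries 1, 2 and 3, against 1.26, 1.95 and 2.17 CPM in control libraries 1, 2 and 3 (4.97-fold, adjusted p = 0.00337). LTB, a ligand of the alternative branch, had a fold change of 1.91 and did not pass (adjusted p = 0.0825), and TNFSF12, which encodes TWEAK, one of 3.03 from few counts (adjusted p = 0.0926).

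Of 8 tested receptors 4 rose, beside 7.53% of all genes tested. TNFRSF12A, the receptor for TWEAK, averaged 169.8 ± 40.3 CPM in FTO siRNA libraries and 63.5 ± 19.8 CPM in control libraries (SD, n = 3 each, adjusted p = 0.0139). TNFRSF1A, the main TNF receptor, rose 1.46-fold (adjusted p = 0.0374) and TNFRSF11A, the receptor RANK, 2.40-fold (adjusted p = 0.0454). CD40, a receptor of antigen-presenting cells, had 53 counts over the FTO siRNA libraries and 4 over the controls (adjusted p = 0.0121). It entered the test through its counts in FTO siRNA libraries. LTBR, the lymphotoxin beta receptor, had a fold change of 1.28 (adjusted p = 0.153) and IL1RAP, the interleukin 1 coreceptor, one of 0.833 with overlapping groups (adjusted p = 0.669).

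Among 17 adaptors and ubiquitin ligases 3 rose, beside 7.53% of all genes tested. IRAK2, a kinase-like adaptor of interleukin 1 and Toll-like receptors, rose 2.01-fold (adjusted p = 0.00581), RBCK1, a subunit of the linear ubiquitin ligase complex, 1.77-fold (adjusted p = 0.0138) and TICAM1, the adaptor TRIF, 1.87-fold (adjusted p = 0.0382). IRAK1, the related kinase, had a fold change of 0.940 (adjusted p = 0.802). Of 11 kinases and their binding proteins 1 rose and 1 fell, beside 7.53% higher and 3.83% lower over all genes tested. In a list of 11 these counts are near those shares. MAP3K8, the kinase that p105 binds, rose 1.83-fold (adjusted p = 0.0179). TAB3, a binding protein of the kinase TAK1, fell to 77.8, 95.5 and 118 CPM in FTO siRNA libraries 1, 2 and 3, against 206, 216 and 171 CPM in control libraries 1, 2 and 3 (0.490-fold, adjusted p = 0.0121). Its relative TAB2 and MAP3K7, the gene of TAK1, did not pass, at fold changes of 1.02 (adjusted p = 0.923) and 0.896 (adjusted p = 0.447).

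Of 15 other tested inhibitors and feedback genes 5 rose and none fell, beside 7.53% higher and 3.83% lower over all genes tested. BCL3, an IkB family protein that binds the processed NFKB1 and NFKB2 products in the nucleus, rose 2.00-fold (adjusted p = 0.0276) and NFKBIB, the gene of IkB beta, 1.79-fold (adjusted p = 0.0279). ZC3H12A, an RNase that cleaves cytokine mRNAs, rose 1.77-fold (adjusted p = 0.0241), and PDLIM2, which in mouse cells was found to promote RELA degradation, 1.99-fold (adjusted p = 0.0444). TAX1BP1, an adaptor of A20, and the ubiquitin ligase ITCH did not pass, at 1.02 and 0.870 (adjusted p = 0.905 and 0.456). None of the 7 genes of the IkB degradation machinery passed, among them the ligase subunits CUL1 and SKP1 (adjusted p = 0.286 and 0.974). In a list of 7, no call is near those shares over all genes.

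Of 27 tested target genes 17 rose, beside 7.53% of all genes tested, with a median log2 fold change of 1.31, also with CCL2 at its lower bound. The 17 include CCL2, CCL5 and IL6, with 0, 5 and 14 counts over the controls. These entered the test through their counts in FTO siRNA libraries, so their rise adds little to the count. The macrophage growth factor CSF1 had 246, 212 and 425 CPM in FTO siRNA libraries 1, 2 and 3, against 59.4, 81.1 and 62.4 CPM in control libraries 1, 2 and 3 (4.35-fold, adjusted p = 0.00415). LIF, a cytokine of the interleukin 6 family, averaged 18.7 ± 8.47 CPM in FTO siRNA libraries and 1.93 ± 0.783 CPM in control libraries (SD, n = 3 each, adjusted p = 0.00359). The chemokine CCL5 had 203 counts over the FTO siRNA libraries and 5 over the controls (adjusted p = 0.00156), and CCL2 had 66 over the FTO siRNA libraries and 0 over the controls, which with 3 counts per control library as the floor is at least 6.83-fold higher. BCL2L1, which encodes the survival protein BCL-xL, had a fold change of 1.49 (adjusted p = 0.10), and the complement gene C3 one of 1.26 with overlapping groups (adjusted p = 0.463).

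**Figure D5:**
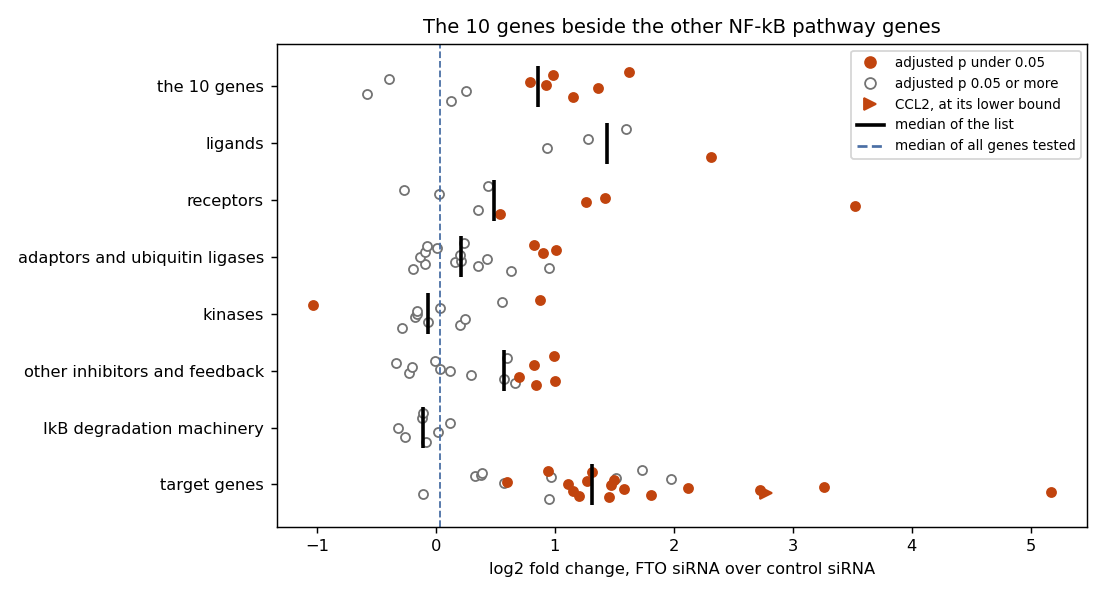
Log2 fold change, FTO siRNA over control siRNA, of the 10 genes and of the tested genes of 7 other NF-kB lists; filled points have an adjusted p under 0.05, CCL2 is drawn at its lower bound, black bars are list medians and the dashed line is the median of all genes tested. The medians of the 10 genes (0.86), the ligands (1.44) and the target genes (1.31) lie to the right of it. So do those of the other inhibitors and feedback genes (0.57), the receptors (0.49) and the adaptors and ubiquitin ligases (0.21). The medians of the kinases (-0.07) and the IkB degradation machinery (-0.11) lie to the left.

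The profile of the 10 genes over the 6 libraries was compared with that of 9585 other protein-coding genes whose log2 CPM averaged 3 or more. Likeness was the root mean square difference between a gene's log2 CPM, centred over the libraries, and the mean centred profile of the 10 genes. The closest were CFLAR, which blocks caspase 8 and is itself on the target list, at 0.0365, LYPLAL1 at 0.0426 and SMAD7, an inhibitor of TGF-beta signalling, at 0.0461. CFLAR averaged 118 ± 12.6 CPM in FTO siRNA libraries and 77.7 ± 6.93 CPM in control libraries, and SMAD7 92.7 ± 7.36 CPM in FTO siRNA libraries and 61.9 ± 5.98 CPM in control libraries (SD, n = 3 each). LYPLAL1 did not pass (adjusted p = 0.0664). The log2 fold changes of CFLAR, LYPLAL1 and SMAD7 were 0.60, 0.57 and 0.58, below the 0.79 to 1.62 of the called genes among the 10. The mean profile also holds the genes that did not pass. This ranking describes a pattern that differs mainly between the groups.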

How the data were processed

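RNA sequencing of HepG2 cells gave 6 libraries, 3 after FTO siRNA and 3 after control siRNA, grouped by their titles. These titles read Control or siRNA treatment with a number, and do not themselves name FTO or a control siRNA. The authors deposited raw counts per Ensembl gene, 1 file per library. Per the submitters' processing notes, TopHat2 2.0.11, TopHat and HTSeq and the builds hg19 and GRCh37 were among the tools and builds; roles, order, strand and the handling of shared reads are not given. Of 60483 identifiers, 56753 matched GENCODE 29, which gave symbols, chromosomes and lengths, but 37168 with the same version. The annotation counted is not settled, so lengths and shared exon bases may differ from it.

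Counts were filtered with filterByExpr, scaled by TMM and tested with edgeR 4.0.16 in R 4.3.3 (glmQLFit, legacy=FALSE; glmQLFTest), two-sided, with Benjamini-Hochberg adjustment over all genes tested and a threshold of 0.05. CPM are TMM-scaled. The standard error is the size of the log2 fold change over the square root of F, and 95% intervals use the fit's degrees of freedom. Alternatives used DESeq2 1.42.0, limma 3.58.1, other scalings, filters, a replicate block and each library left out. The steps were tested on simulated data. Libraries of a group differed by more than sampling noise.

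The 10 genes and the gene lists were chosen with earlier results of these data known. Named were FTO, the 10 genes, up to 4 called genes per direction and the 2 most abundant others of each pathway list, 2 markers per marker list by counts, and the 3 genes of closest profile; genes at 0 and changes after values were seen are marked.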

Additional observations from a re-analysis of the deposited data

How the results depend on the processing

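The 10 genes kept the direction of their fold changes under all 16 alternatives. RELB, BIRC3, RELA, NFKB1 and NFKBIZ also kept their side of the threshold. NFKBIE lost its call with a fold minimum of 1.2 (adjusted p = 0.0625) and with the replicate block (0.0682), beside the losses with 1 library left out. Other calls changed only with 1 library left out, as given above, and the cause was not tested. Same-numbered libraries did not deviate together (correlations of -0.138, -0.0643 and -0.248), so the numbers were not taken as pairs. With the replicate number as a block, 5 of the 10 genes and 20 of the other pathway genes were called higher, and 736 genes overall were higher and 305 lower; the ratios of RELB to RELA, NFKB2 to NFKB1 and NFKBIA to RELA had differences of 1.10, 1.03 and 0.67, as without it. Over all genes tested, DESeq2 called 1029 lower and the fold minimum 315 lower, where the quasi-likelihood test called 575. With 1 library left out, the counts ran from 2 to 6 higher and 0 to 1 lower among the 10 genes, from 10 to 46 higher and 0 to 3 lower among the other pathway genes, and from 287 to 2430 higher and 102 to 2152 lower over all genes. The highest counts over all genes came without FTO siRNA 3. In these fits a group of 2 libraries is assumed to vary like the group of 3. Depth limits REL most, at 81 counts in FTO siRNA 1.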
